A study of Mus musculus with 4 samples.

Results

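The Teashirt zinc finger family loci are 3 windows of the mouse genome, 1 named for each of the genes Tshz1, Tshz2 and Tshz3. The members are all Meis and Prep peaks that lie inside them on the mm9 build: chromosome 18 from 84000000 to 84500000 for Tshz1 (gene ID 110796), chromosome 2 from 169200000 to 170000000 for Tshz2 (gene ID 228911), and chromosome 7 from 37300000 to 37900000 for Tshz3 (gene ID 243931). They hold 37 of the 9017 peaks of the series. Of these, 32 come from the 5686 peaks of the Meis list and 5 from the 3331 peaks of the Prep list. The loci were chosen by where peaks of these lists lie and how high they score, so the numbers and scores of peaks in them describe the choice and carry no test.

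The lists come from chromatin immunoprecipitation followed by sequencing (ChIP-seq), a method that recovers and sequences the DNA to which a protein is bound. Trunks of wild-type C57BL/6 embryos at embryonic day 11.5 were dissociated into single cells and cross-linked. A single library was made with Meis1/2 antibodies (K830, K844) and another with a Prep1/2 antibody (N15 Santa Cruz), and an input library without antibody goes with each. The antibodies are labelled as recognising both proteins of each pair, so Meis1 and Meis2 binding cannot be told apart, nor can Prep1 and Prep2. The trunk is a mixture of cell types, and a peak does not say in which of them the protein was bound. With 1 library per antibody nothing measures the spread between embryos, and no test between the loci was made.

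Teashirt was first described in the fruit fly, where this zinc finger transcription factor gives trunk segments their identity together with the Hox proteins. In the fly it also acts with Homothorax, the counterpart of the vertebrate Meis proteins, in the proximal parts of appendages and in the eye. Mice have 3 Teashirt genes, of which Tshz1 is needed for the soft palate and the middle ear and Tshz3 for the smooth muscle of the ureter. Meis and Prep are homeodomain proteins of the TALE class, which bind DNA alone or together with Pbx and Hox partners.

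Each locus held a very strong Meis peak, but the peaks around it were arranged differently. The Tshz1 locus had 12 Meis peaks, 9 of them packed into 19.4 kb. The Tshz2 locus had 14 Meis peaks spread over 673 kb, and 0 Prep peaks. The Tshz3 locus had 6 Meis peaks, of which the 3 strongest lay within 11.5 kb. Prep peaks were found at 2 of the loci, 3 at Tshz1 and 2 at Tshz3. All 5 lay on Meis peaks, against 12.2% of the whole Prep list, and none of the 5 scored above the median of that list. Over the whole list, Prep peaks that overlap a Meis peak had a median place at 60.6% of the list. Of consecutive 800 kb windows, the length used for Tshz2, 55.4% held 0 Prep peaks.

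**Figure D1:**
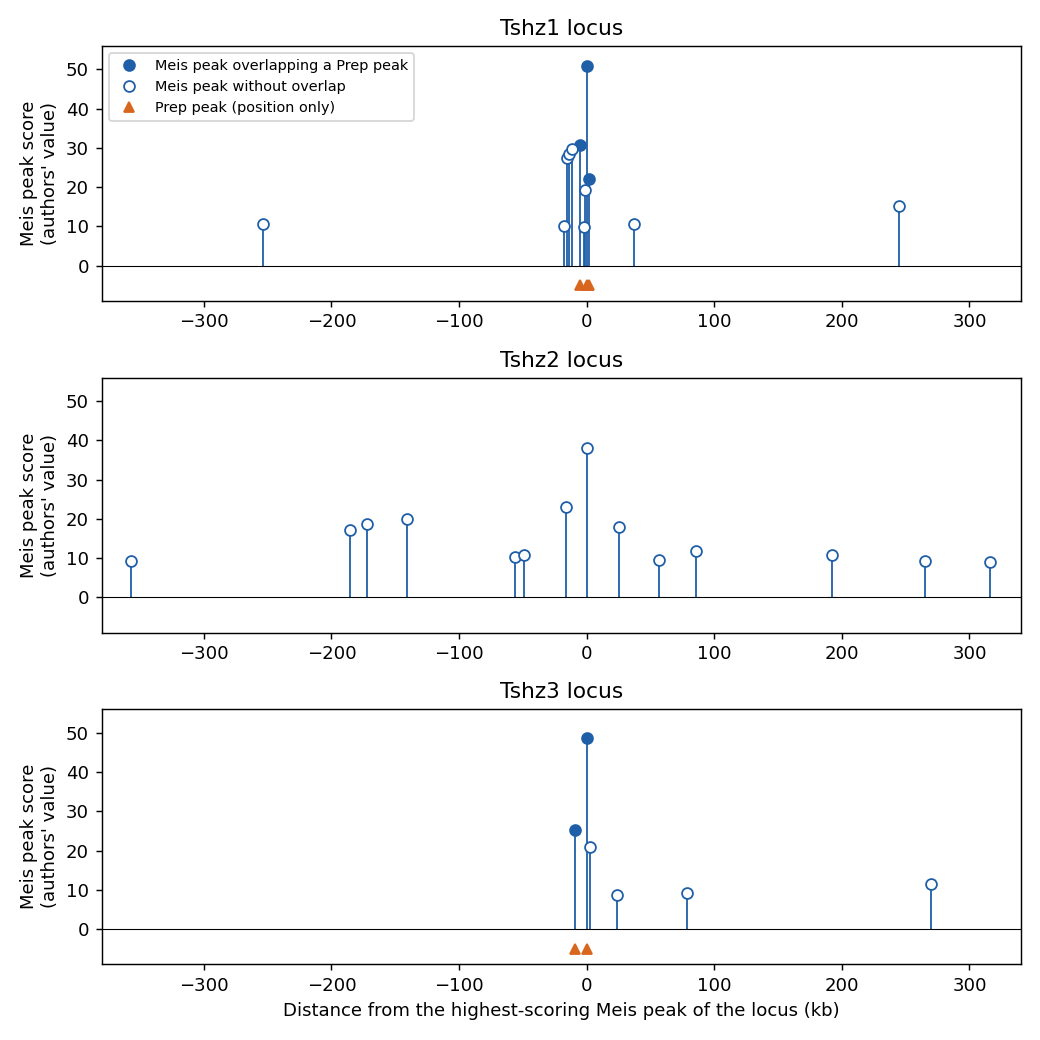
Meis peaks of the Tshz1, Tshz2 and Tshz3 loci, drawn as stems at their distance in kb from the highest-scoring Meis peak of the locus (horizontal axis), with the authors' score on the vertical axis. Filled circles are Meis peaks that overlap a Prep peak, open circles are those that do not, and triangles mark the positions of Prep peaks without their scores. The tallest stems reach 50.8, 38.0 and 48.6, and the 5 triangles stand under filled circles.

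The density of Meis peaks was 24 per Mb at Tshz1, 17.5 per Mb at Tshz2 and 10 per Mb at Tshz3, against 2.23 per Mb between the first and last listed peaks of the chromosomes. When the chromosomes were divided into consecutive windows of the same lengths, 0.215% of 5128 windows held at least 12 Meis peaks, 0.342% of 3213 windows at least 14, and 3.16% of 4276 windows at least 6. For Prep, 7.53% of the 500 kb windows held at least 3 peaks, 18.2% of the 600 kb windows at least 2, and 55.4% of the 800 kb windows held 0. These shares are the background of counts that the choice of loci used, and nothing is read from them about the loci. Prep peaks made up 13.5% of the member peaks (5 of 37, 95% Wilson interval 5.91 to 28.0%) and 36.9% of the peaks of both lists together. This share depends on the number of Meis peaks in the chosen loci and was not tested. Prep peaks themselves numbered 2.63 per Mb over the 3 loci, against 1.30 per Mb over the list.

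Each peak carries a score that the authors' peak caller gave it, with no stated scale. It is used here only to order the peaks of a list: a peak's place counts down that order from 1 for the highest score, and peaks with equal scores share the best place. The median score was 10.7 for Meis (range 8.51 to 75.1) and 10.5 for Prep (range 5.03 to 353). Signal below the lowest listed score does not appear in a list.

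The Tshz1 locus carried the densest group of Meis peaks among the 3 loci. Its strongest peak lay on chromosome 18 at 84254048 to 84254207, where it scored 50.8 and held place 13. The second, at 84248460 to 84248641, had a score of 30.7 (place 83), and the third, at 84242884 to 84243108, a score of 29.6 (place 98). Moving from low to high coordinates, the 9 grouped peaks scored 10.04, 27.3, 28.4, 29.6, 30.7, 9.82, 19.3, 50.8 and 22.1. Strong and weak peaks thus stood side by side: 7 of the 9 were among the highest-scoring 10% of Meis peaks, while the peak at 84236664 to 84236811 and the peak at 84251841 to 84251982 lay below the median of the list, at places 3387 and 3685. The group opened with the first of these and closed with the peak at 84255817 to 84256016 (score 22.1, place 282).

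Gaps inside this group, measured from the end of a peak to the start of the next, ran from 0.884 to 5.35 kb with a median of 1.84 kb. The closest neighbours, 884 bp apart, were the peaks at 84238875 to 84239128 and at 84240013 to 84240197, with scores of 27.3 and 28.4. The widest gap fell between the peaks scoring 29.6 and 30.7. It set 4 peaks on the low-coordinate side apart from 5 on the other, and all 3 Prep peaks lay on the side with 5.

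The other 3 Meis peaks of the Tshz1 locus stood far from this group and were of ordinary strength. They scored 10.7, 10.7 and 15.2, and their places were 2788, 2788 and 1002. The nearest of them was 35.3 kb beyond the end of the group and the others 236 and 243 kb from it. None of the 3 overlapped a Prep peak.

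**Figure D2:**
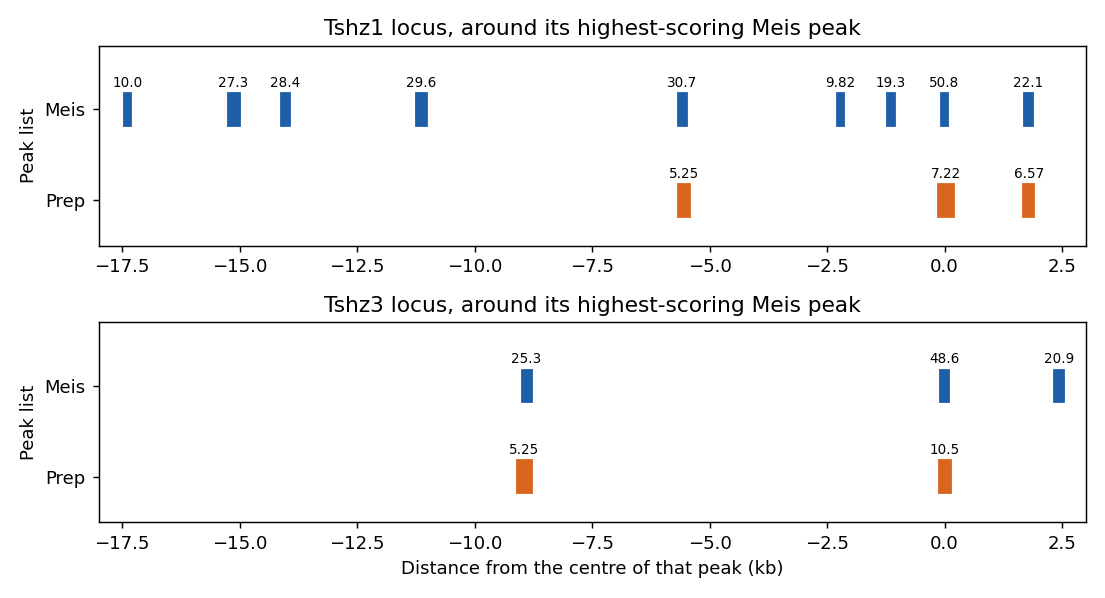
Peaks of the Meis list (blue) and the Prep list (orange) around the highest-scoring Meis peak of the Tshz1 and Tshz3 loci, drawn to scale on the same horizontal axis in kb, with the authors' score above each peak. At Tshz1, 9 Meis and 3 Prep peaks are drawn, and at Tshz3, 3 Meis and 2 Prep peaks. Each Prep peak stands directly under a Meis peak.

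Dense runs, defined as at least 4 Meis peaks with gaps of up to 10 kb, took in 1.37% of the Meis list (78 peaks in 13 runs). The Tshz1 group was the only such run in the 3 loci, and its 9 peaks were 75% of the Meis peaks of its locus. Among the 13 runs it shared the 3rd place by number of peaks and had the 3rd highest density, 4.65 peaks per 10 kb. Its median place of 137 was the best of the 13, the other 12 having median places from 221 to 4095. The 2 runs with more peaks had lower median scores. One, on chromosome 6 at 52108281 to 52128618, had 11 peaks over 20.3 kb with a median score of 16.2, and the other, on chromosome 11 at 96180588 to 96213320, had 10 peaks over 32.7 kb with a median score of 15.3, against 27.3 for the Tshz1 run. Among the highest-scoring 10% of Meis peaks were 7 of the 9 in the Tshz1 run and 30.4% of the peaks of the other runs (21 of 69). The run next to it in median place (221), on chromosome 14 at 22807840 to 22813808, was similar, with 3 of 4 peaks in that slice. Its median score was 24.5 and its density 6.70 peaks per 10 kb, so a dense group of strong peaks was not particular to Tshz1. Overlap with Prep was found for 3 of 9 in the Tshz1 run and for 21.7% of the others (15 of 69). The other 12 runs varied widely: 6 of them had 0 shared peaks, while the run on chromosome 8 that starts at 28095188 had 4 of 5 shared and the one on chromosome 14 that starts at 22807840 had 3 of 4. These runs were named after their values were seen. With 9 peaks that share a short stretch of chromosome, these shares are given as a description only.

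**Figure D3:**
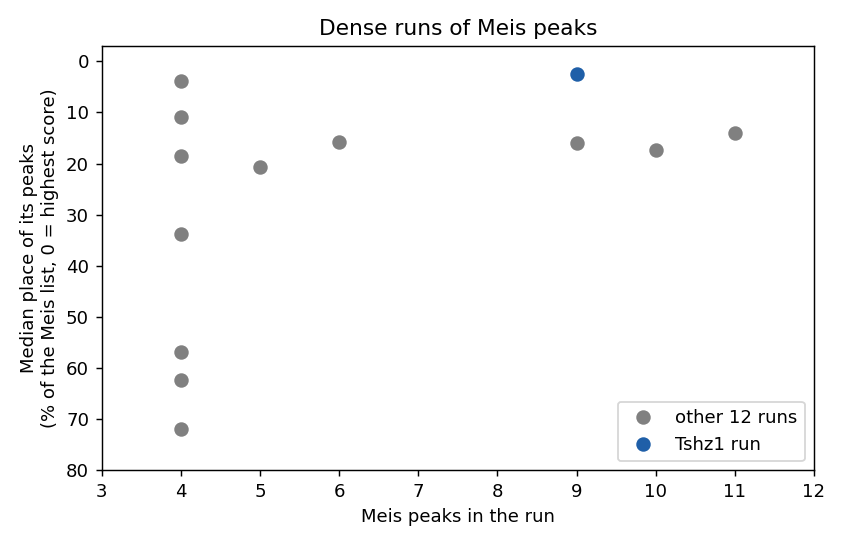
The 13 dense runs of the Meis list, each a point, by the number of Meis peaks in the run (horizontal axis) and the median place of those peaks as a percentage of the list (vertical axis, highest scores at the top). The Tshz1 run, in blue, has 9 peaks and a median place at 2.41% of the list, and the other 12 runs, in grey, lie lower.

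At the Tshz2 locus the Meis peaks were more evenly spaced. The strongest, on chromosome 2 at 169632514 to 169632719, scored 38.0 and held place 36. It was followed by the peak at 169616041 to 169616193 (score 23.1, place 244), which lay 16.3 kb away, and by the peak at 169491931 to 169492104 (score 19.98, place 390). The 11 others scored between 8.96 and 18.6, and 5 of the 14 fell below the upper 50% of the list. From low to high coordinates the scores were 9.30, 17.2, 18.6, 19.98, 10.2, 10.7, 23.1, 38.0, 17.9, 9.48, 11.8, 10.7, 9.19 and 8.96. The 5 peaks of the highest-scoring 10% lay between 172 kb on one side and 25.3 kb on the other side of the strongest peak, and the 3 peaks at the high-coordinate end had scores of 10.7 or less.

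The 13 gaps of the Tshz2 locus ran from 7.07 to 171 kb with a median of 31.5 kb, and 1 of them was under 10 kb. This closest pair, the peaks at 169576437 to 169576669 and at 169583735 to 169583909, lay 7065 bp apart and scored 10.2 and 10.7. They formed the largest group at this locus under the 10 kb limit, so there was no dense run. No stretch of 20 kb held more than 2 Meis peaks, where the fullest stretch of that length held 9 at Tshz1 and 3 at Tshz3.

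The Tshz3 locus combined a short strong group with scattered peaks of lower score. Its strongest peak, on chromosome 7 at 37493033 to 37493229, scored 48.6 and held place 15. The peak at 37484133 to 37484343 (score 25.3, place 177) lay 8.69 kb to its left and the peak at 37495468 to 37495674 (score 20.9, place 345) lay 2.24 kb to its right. These neighbours, 2238 bp apart, were the closest at the locus. The remaining 3 peaks scored 8.61, 9.23 and 11.4, at places 5246, 4488 and 2329, and followed at 21.2, 54.5 and 191 kb from the peak before. The group of 3 fell short of the 4 peaks of a dense run.

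**Figure D4:**
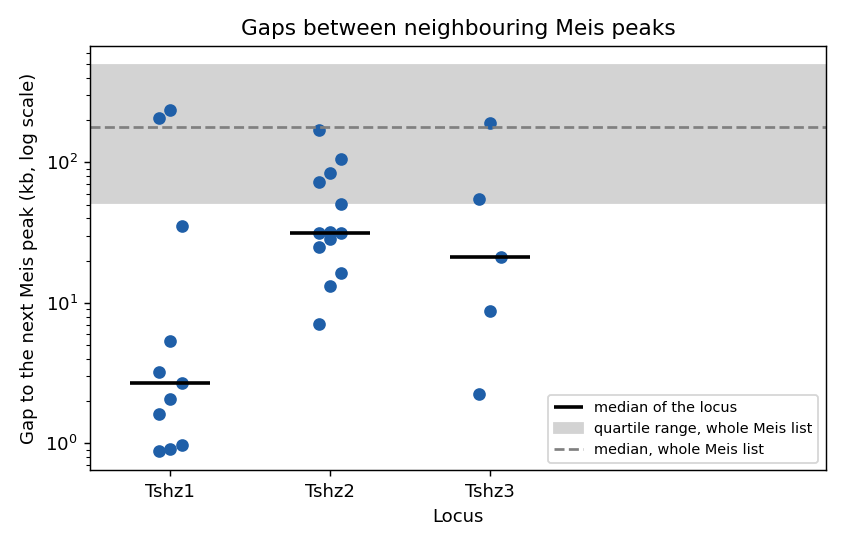
Gaps in kb between neighbouring Meis peaks of the Tshz1, Tshz2 and Tshz3 loci on a log axis, 1 point per gap, with the median of each locus as a black bar. The grey band and dashed line give the quartiles (51.7 and 491 kb) and the median (177 kb) of the gaps in the whole Meis list. The median bars stand at 2.69, 31.5 and 21.2 kb.

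Over the whole Meis list the median gap was 177 kb, and 7.89% of gaps were 10 kb or less. The corresponding numbers were 8 of 11 at Tshz1, 1 of 13 at Tshz2 and 2 of 5 at Tshz3. Of Meis peaks in the highest-scoring 10%, 10.9% had another such peak within 20 kb across the list. This held for 7 of 7 at Tshz1, for 3 of 3 at Tshz3 and for 2 of 5 at Tshz2, where the pair was the 2 strongest peaks. Each of the 3 loci therefore had its strongest Meis peak within 20 kb of a second peak from the highest-scoring 10%, at 0.977 kb for Tshz1, 2.24 kb for Tshz3 and 16.3 kb for Tshz2. Positions and scores could guide the choice of the loci, and the 7 peaks at Tshz1 and the 3 at Tshz3 each form a single group. These counts are therefore a description only.

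In the order of scores, the 32 Meis members had a median place at 14.5% of the Meis list, against 49.0% for that whole list. The 5 Prep members had a median place at 69.7% of the Prep list, against 49.3% for that whole list. The highest-scoring 10% of the Meis list, 10.3% of its peaks with ties (585), included 7 of 12 peaks at Tshz1, 5 of 14 at Tshz2 and 3 of 6 at Tshz3. The 95% Wilson intervals of these shares were 32.0 to 80.7%, 16.3 to 61.2% and 18.8 to 81.2%. They cover the number of peaks only. They treat peaks as independent, which peaks of a single group are not, so the loci are not compared by them. The median place of the Meis peaks was 358 at Tshz1, 2445 at Tshz2 and 1337 at Tshz3, that is 6.30, 43.0 and 23.5% of the list. The value for Tshz3 rests on 6 peaks and was 55.8% with the window widened by 100 kb on each side. The strongest peaks of the loci held places 13, 36 and 15, and 0.651% of the Meis list is at place 36 or better. Scores were among the values that could guide the choice of the loci, so no test was made. The weaker members included ties: 4 of them, 2 at Tshz1 and 2 at Tshz2, had a single score of 10.7 that 167 Meis peaks of the list share.

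**Figure D5:**
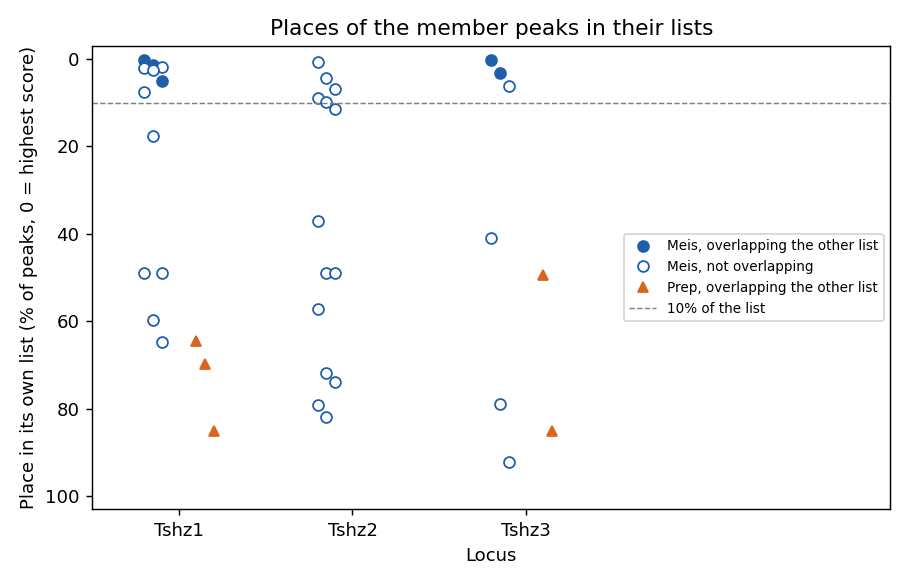
Place of every member peak in its own list, as a percentage of the peaks of that list (vertical axis, highest scores at the top), for the 3 loci. Circles are Meis and triangles Prep peaks, filled symbols overlap a peak of the other list, and the dashed line marks 10%. The 5 filled circles stand between 0.229 and 4.96%, and the 5 triangles between 49.3 and 85.1%.

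Overlap between the lists, by at least 1 bp, was found for 5 of the 32 Meis members, which is 15.6% (95% Wilson interval 6.86 to 31.8%), against 7.16% of the whole Meis list. The 5 were 3 of 12 at Tshz1 (8.89 to 53.2%), 0 of 14 at Tshz2 (0 to 21.5%) and 2 of 6 at Tshz3 (9.68 to 70.0%). No comparison of the loci is drawn from these intervals, and a difference in overlap between the loci was not tested. From the Prep side, 5 of 5 members overlapped a Meis peak (56.6 to 100%), against 12.2% of the whole Prep list. The loci were chosen with the positions of peaks known, and 3 of these 5 Prep peaks lay in a single dense run of Meis peaks. The intervals treat peaks as independent, so the shares are a description and their difference from the lists was not tested.

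At Tshz1 the strongest Meis peak lay wholly inside the Prep peak at 84253996 to 84254325, which had a score of 7.22 and place 2152 in the Prep list. The centres of the pair were 33 bp apart. The second strongest, at place 83, met the Prep peak at 84248465 to 84248715 (score 5.25, place 2834), with 39.5 bp between the centres and 97.3% of the Meis peak covered. The last peak of the run, at place 282, lay inside the Prep peak at 84255807 to 84256032 (score 6.57, place 2321), with centres 3 bp apart. The Meis peaks between these, at places 3685 and 434, had no Prep partner, although the second of them ended 925 bp before a Prep peak began.

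At Tshz3 the strongest Meis peak lay inside the Prep peak at 37493014 to 37493272, with centres 12 bp apart. That Prep peak had a score of 10.5, the median of its list, and place 1643. The second Meis peak, at place 177, lay inside the Prep peak at 37484034 to 37484354 (score 5.25, place 2834), with centres 44 bp apart. The third Meis peak, at place 345, had no Prep peak on it, and the nearest was 2.20 kb away.

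In all 5 pairs Prep had the wider peak, at 226 to 330 bp against 160 to 211 bp for Meis. Over the 409 pairs of the lists this was so in 85.8%, and the median distance of centres was 28.5 bp. Places of the 5 shared Meis members ran from 13 to 282, all in the highest-scoring 10%, where 36.6% of the shared Meis peaks of the whole list lay (149 of 407). Those of their Prep partners ran from 1643 to 2834 of 3331. Of the whole Prep list, 50.7% scored no higher than the best of these Prep peaks, and shared Prep peaks across the list had a median score of 7.88 and a median place of 2019, so low places of shared Prep peaks were not particular to these loci. Of these Prep peaks, 4 scored 7.22 or less, where the lowest score in the list was 5.03, and fainter Prep signal at the remaining Meis members could have gone unlisted.

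Meis members without a Prep peak ranged from place 36 to place 5246. The highest-scoring 10% of Meis peaks included 15 members, and Prep overlapped 5 of them, 3 of 7 at Tshz1, 0 of 5 at Tshz2 and 2 of 3 at Tshz3. In that slice of the whole list 25.5% of peaks were shared. The strongest member without overlap was the Tshz2 peak at place 36, followed by the Tshz1 peak at place 98. Among the 37 Meis peaks of the list at place 36 or better, 22 overlapped a Prep peak (59.5%). Of the 17 members below that slice, with scores from 8.61 to 17.2, 0 were shared. The share there was also low over the whole list, 5.06% (258 of 5101 peaks), so a count of 0 among 17 is near the background.

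The next Prep peaks on either side of the Tshz1 window were 917 kb to the left and 521 kb to the right, with scores of 127 and 125 (places 276 and 282) and no Meis overlap. Between them lay 1.94 Mb with 21 Meis peaks and 3 Prep peaks, those of the Tshz1 run. At Tshz3 the next Prep peaks were 760 kb to the left (score 102, place 400) and 1065 kb to the right (score 6.79, place 2316), and the 2.43 Mb between them held 15 Meis peaks and the 2 Prep peaks of the locus. Because these stretches end at the next Prep peaks, the only Prep peaks they can hold are the members already described. The Prep peaks bordering the Tshz3 stretch did not overlap a Meis peak either. The Prep list as a whole had 1.30 peaks per Mb.

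At Tshz2 the neighbouring Prep peaks were 75.9 kb outside the window on the left (score 11.2, place 1595) and 334 kb outside it on the right (score 8.54, place 1905), neither on a Meis peak. The interval between them was 1.21 Mb long and held 14 Meis peaks. Intervals between neighbouring Prep peaks had a median of 221 kb over the list. Of 3310 such intervals 17.0% were at least as long, and 1.30% (43) held at least as many Meis peaks. Of the 11 consecutive 800 kb windows with at least 14 Meis peaks, 1 held 0 Prep peaks (9.09%). The locus was chosen with the positions of its peaks known, so these shares are background only and nothing is read from them about it. The Tshz2 members lay 152 to 594 kb from the nearest Prep peak, with a median of 456 kb, against a median of 249 kb for the whole Meis list.

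Meis peaks at Tshz1 had a median width of 184 bp (142 to 254 bp), against 209 bp for the list. The medians were 205 bp at Tshz2 (153 to 265 bp) and 210 bp at Tshz3 (197 to 312 bp). The widest Meis members, at 312 and 306 bp, were the 2 weakest Meis peaks of Tshz3.

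The windows cut through no peak, but peaks lay close to their edges. At Tshz1 the first and the last Meis peak lie 198 and 931 bp inside, with scores of 10.7 and 15.2, and the nearest peaks outside are 306 and 76.9 kb away. At Tshz3 a Meis peak with a score of 8.89 lies 1.74 kb outside on the left. At Tshz2 the nearest Meis peaks outside are 170 and 414 kb from the edges.

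No annotation of the mm9 build was used here, so no peak was placed in a promoter, exon or intron, and that the windows contain the genes they are named for was not checked. In the RefSeq order of named protein-coding genes on GRCm38.p6, Tshz1 stands between Zfp516 and Zadh2, Tshz2 between Zfp64 and Zfp217, and Tshz3 between Zfp507 and Zfp536. The peaks may therefore lie near a neighbour as well as near the Teashirt gene, and they were assigned to neither. The sequences under the peaks were not analysed here.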

How the data were processed

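ChIP-seq peaks of 2 libraries of mouse embryonic trunk, 1 per antibody, were used; the 2 input libraries were not analysed here. The submitters' processing notes name BWA and the mm9 build. Each antibody library has its own peak list, in which peak names carry the tag "pics" (and Prep1 in the Prep list), per the file headers and columns. The authors deposited a score for each peak. Not given in the sources used here are its scale, the settings of the caller, whether the input entered the calling, and later filters. Numbers in the peak names run to 5692 and 3338, but the Meis list used here lacks 6 of them and the Prep list 7. The depth of the libraries is unknown; shares carry 95% Wilson intervals, which cover the number of peaks only.

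Starts were raised by 1 to count from 1, taking the positions to be in BED form. A member lies wholly inside a window. Overlap means at least 1 bp, gaps run from edge to edge, and a dense run has at least 4 Meis peaks with gaps of up to 10 kb. Background windows were consecutive stretches between the first and last listed peaks of each chromosome, with peaks counted by centre. The loci, lists and measures were chosen with earlier results of these data known. The rule for named peaks took the 3 strongest Meis peaks, all Prep peaks, all pairs, the closest neighbours and the ends of the largest group at each locus. Other peaks were named after their values were seen. The planned motif search was not run, since no mm9 sequence was used here. Alternatives were a stricter list, wider windows, peaks counted by centre, other overlap rules, a fixed width of 200 bp, other gap limits and another handling of ties. Python 3.11.15, numpy 2.4.6, pandas 2.3.3, scipy 1.17.1 and matplotlib 3.10.9 were used. Overlap and run finding were tested on simulated lists.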

Additional observations from a re-analysis of the deposited data

How the results depend on the processing

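No paired analysis was possible because each antibody has 1 library and no result comes from a test. Leaving out a replicate was not possible either. Of 45 values recomputed under other settings, 35 stayed within 1.5 times the reported value and 10 did not. Some of the 35 could not move. No peak crosses a window edge, so counting by centre had to give the same numbers. The Meis peaks of Tshz2 lie at least 152 kb from a Prep peak, so its 0 shared peaks were fixed under every overlap rule. The count of 35 is therefore no measure of how stable the results are. In the highest-scoring 50% of both lists, Prep peaks numbered 0 at Tshz1 and 1 at Tshz3, shared Meis peaks likewise 0 and 1, and Meis peaks at Tshz2 9, with 1 peak in its largest group. The overlaps at Tshz1 thus rest wholly on Prep peaks from the lower-scoring part of the list. With a gap limit of 5 kb, the Tshz1 run split and its largest group held 5 peaks, while the largest group at Tshz2 held 1. With windows widened by 100 kb on each side, Tshz2 gained 1 Prep peak, which overlapped no Meis peak, and the median Meis place at Tshz3 moved from 23.5 to 55.8% of the list. The number of shared peaks was the same at each locus with an overlap of 50% of the narrower peak, with centres within 500 bp and with all peaks set to 200 bp. Peaks under the lowest listed score are not in the lists, which limits every count of 0.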
